A study of Mus musculus with 16 samples.

Results

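Brain libraries from Prepl knockout mice were set against libraries from the wild types kept as their controls. The members were picked by their sample titles, which name 4 Prepl knockouts and 4 wild types, 8 of the 16 libraries of the series. The other 8 libraries, 4 from brains with a deleted Prader-Willi imprinting centre (PWS-IC) and 4 from their own wild types, were used here only where a result needed an outside reference. Every library came from total RNA of mouse brain, turned into Lexogen QuantSeq libraries that capture poly(A) tails and read the 3' ends of transcripts. The labels give the genotype as WT or Prepl knockout and the tissue as brain. They name no strain, age, allele, brain region or littermate status, and do not say that the replicates are separate animals, so each p-value measures the spread between these libraries. The study asked how alike the molecular changes of 2 human disorders are, a congenital myasthenic syndrome modelled by the knockout and Prader-Willi syndrome modelled by the deletion.

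Prepl, prolyl endopeptidase-like, is a serine hydrolase related to the prolyl endopeptidase that cuts small peptides. It is abundant in brain, has esterase and thioesterase activity, and has been placed both at the trans-Golgi network, where it meets the AP-1 clathrin adaptor, and, as a longer isoform, in mitochondria. People who lack it have a myasthenic syndrome from birth, with weak muscle tone in infancy and too little growth hormone.

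The 8 libraries held 4524883 to 5805787 reads in genes and had reads for 19064 to 19603 genes. Xist, the RNA of the inactive X chromosome, and 4 Y-linked genes showed that wild types 1, 2 and 3 came from females, wild type 4 from a male and the 4 knockouts from males. Sex and genotype therefore overlap here, and only wild type 4 allows a comparison within a sex. Along the first principal component of the normalized values, which held 22.3% of the variance, the wild types lay between -27.9 (wild type 1) and 4.49 (the male wild type 4), and the knockouts between 8.51 and 15.4. Wild type 1 also had the largest share of reads outside genes, 19.6% against 15.98% to 16.3% in the other wild types and 16.1% to 19.2% in the knockouts. The tissue label held up: the 10 neuron markers were all tested and summed to 6259 to 7009 CPM (counts per 1000000 reads in genes). The 10 pituitary markers, of which 1 was tested, summed to 3.62 to 4.38 CPM in the wild types and 1.39 to 3.97 CPM in the knockouts. Of these 10, Prl and Fshb had no read in any of the 8 libraries.

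After a filter on low counts 13722 of 43472 listed genes were tested. edgeR's quasi-likelihood test, with Benjamini-Hochberg adjustment over all of them as in each fold change below, called 36 genes at an adjusted p under 0.05 (0.262% of those tested), 26 higher (0.189%) and 10 lower (0.0729%) in the knockouts. Of the 36, 32 had no overlap in CPM between the 2 groups, 23 higher and 9 lower. Over all tested genes 781 had no overlap (5.69%), 220 higher (1.6%) and 561 lower (4.09%). After scaling with TMM factors 725 had no overlap (5.28%), 372 higher (2.71%) and 353 lower (2.57%), so the excess of lower genes belongs to the plain CPM scale. At an unadjusted p under 0.05 there were 1294 genes (9.43%). Changes are given as log2 fold changes of knockout against wild type with their standard error. The median standard error was 0.14 over all tested genes, and 0.35 among the 1490 genes with an average log2 CPM below 2, where 1 gene was called. The smallest called change was 0.31.

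**Figure D1:**
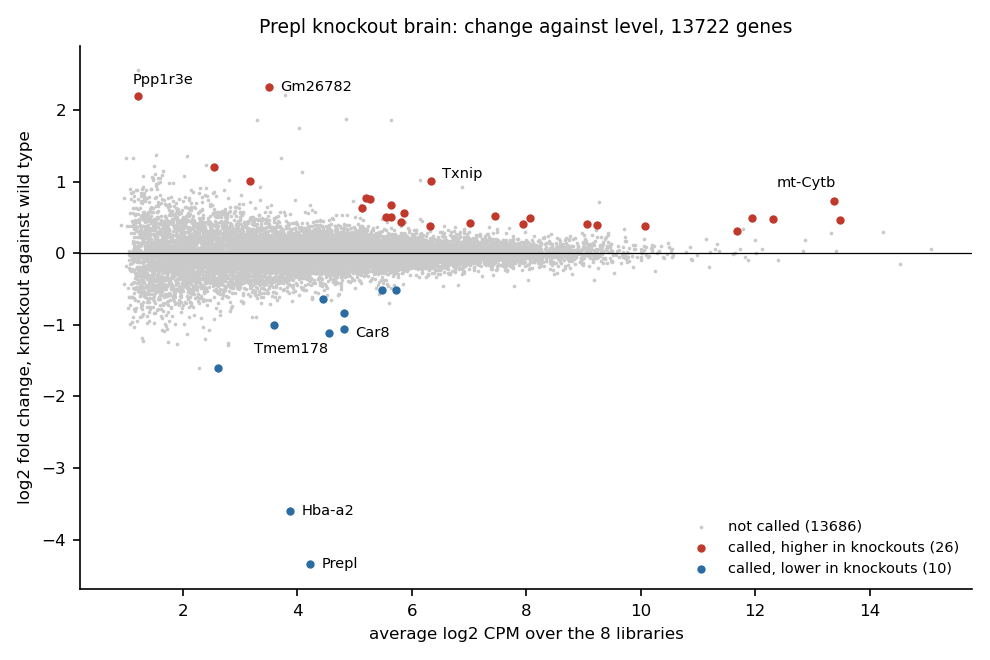
Log2 fold change of Prepl knockout against wild type (vertical axis) by average log2 CPM over the 8 libraries (horizontal axis) for the 13722 tested genes, 1 point a gene. Red and blue points mark the 26 genes called higher and the 10 called lower; Prepl and Hba-a2 lie far below the rest, and the called genes at the right end are mitochondrial mRNAs.

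Prepl itself checks the labels. It was at 36.5, 33.6, 33.8 and 35.2 CPM in wild types 1 to 4 and at 1.17, 2.18, 1.83 and 1.39 CPM in knockouts 1 to 4. No knockout came near a wild type, and the 8 PWS-IC libraries, at 27.9 to 38.6 and 26.9 to 34.8 CPM, lay around the wild-type level. The log2 change was -4.34 ± 0.19 (edgeR's quasi-likelihood test with Benjamini-Hochberg, adjusted p = 9.44e-14), a level 20.3-fold lower, from 741 reads over the wild types to 34 over the knockouts. The gene spans chromosome 17, 85063470 to 85090241 on the minus strand (GRCm38). Slc3a1, which runs into it from the opposite strand, had 2 wild-type reads and 0 knockout reads. The labels do not say which part of Prepl was removed, so it is not known whether the remaining 3' end reads come from a shortened transcript.

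Chromosome 17 held 1 more called gene, Tmem178 (80944632 to 81001816), which encodes a transmembrane protein. It was at 23.9, 31.7, 37.6 and 32.2 CPM in the wild types and 17.9, 12.9, 11.7 and 14.3 CPM in the knockouts, a log2 change of -1.11 ± 0.15 (adjusted p = 3.96e-04, same test). The groups did not overlap, and all 8 PWS-IC libraries, at 34.5 to 53.3 CPM, lay above every knockout. Males were higher than females by 0.39 ± 0.10 in the PWS-IC libraries (adjusted p = 0.0324), the direction opposite to that of the male knockouts.

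None of 21 tested relatives of Prepl and depalmitoylating thioesterases was called (8 above 0, 13 below, median -0.01, against 0.0003 over all genes). Prep, the prolyl endopeptidase that gave the family its name, had a log2 change of -0.10 ± 0.14. The nearest miss of the list was Acot2, a mitochondrial acyl-CoA thioesterase. It was at 13.9, 23.9, 13.3 and 11.2 CPM in the wild types and 6.62, 9.72, 8.07 and 6.55 CPM in the knockouts, without overlap, at -0.98 ± 0.22 (adjusted p = 0.0593). The 8 PWS-IC libraries, at 4.60 to 11.8 CPM, lay nearer to the knockouts. Its cytosolic neighbour Acot1 had the opposite sign, at 0.28 ± 0.10 (adjusted p = 0.372), and the membrane peptidase Dpp4 was at -1.04 ± 0.40 (adjusted p = 0.395), with group means of 2.46 and 1.17 CPM.

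The AP-1 clathrin adaptor and Golgi sorting genes, the trafficking machinery tied to Prepl, had no called member among 23 (9 above 0, 14 below, median -0.02, or 0.04 with a sex term over 16 libraries). Synrg, the AP-1-binding protein gamma-synergin, was at 131, 129.5, 133 and 125 CPM and then 154, 139, 138 and 155 CPM, so every knockout lay above every wild type, with a log2 change of 0.21 ± 0.069 (adjusted p = 0.279). Aftph, a partner of Synrg in the same coat, was at 0.19 ± 0.082 (adjusted p = 0.479) with overlap, and the adaptor subunit Ap1m1 at -0.09 ± 0.075. Cholinergic genes, which bear on neuromuscular transmission, had 13 of 20 members tested and none called (3 above 0, 10 below, median -0.06, or 0.05 with that sex term). Acetylcholinesterase, Ache, was at -0.12 ± 0.13, and the cholinergic transcription factor Lhx8 at 0.56 ± 0.26 (adjusted p = 0.514). Chrm4 had no read in any of the 8 libraries.

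The growth hormone and Igf axis had 16 of 22 members tested and none called (8 above 0, 8 below, median -0.00). Ghrhr and Sstr4 had no read in the 8 libraries. The somatostatin receptor Sstr1 was at 41.99, 32.2, 32.6 and 30.5 CPM in the wild types and 24.2, 23.2, 29.2 and 23.8 CPM in the knockouts, with no overlap and a log2 change of -0.41 ± 0.12 (adjusted p = 0.229). In the 8 PWS-IC libraries, at 9.86 to 22.1 CPM, it was below all 8 of these. Igfbp4, a secreted binding protein of the growth factor, was at -0.28 ± 0.085 (adjusted p = 0.222). The receptor Igf1r was at 0.25 ± 0.079 (adjusted p = 0.250), against -1.07 ± 0.17 in the PWS-IC deletion.

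Mitochondrially encoded mRNAs were the one list with several called members. The mitochondrial genome is transcribed as long precursors that are cut into mRNAs and 2 ribosomal RNAs. The mRNAs carry 13 coding genes, for parts of the respiratory complexes and of ATP synthase. Each gene is counted here as an mRNA, although mt-Nd4l and mt-Nd4 share a transcript, as do mt-Atp8 and mt-Atp6. All 13 mRNAs had a log2 change above 0, 6 of them were called (median 0.29), and 10 had an unadjusted p under 0.05. Their median was 0.23 with a sex term over 16 libraries, with mt-Nd4l and mt-Nd6 then below 0. For male against female in the PWS-IC libraries it was 0.16, the direction of the knockouts, all of them male. The list was chosen with earlier results of these data known, so its direction is a description.

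Cytochrome b, mt-Cytb, the mitochondrially encoded subunit of complex III, was at 7527, 7913, 8409 and 8434 CPM in the wild types and 11730.4, 12673, 12760.1 and 15179.9 CPM in the knockouts. The lowest knockout stood above the highest wild type and above all 8 PWS-IC libraries (5922 to 8921 CPM). The log2 change was 0.73 ± 0.077 (edgeR's quasi-likelihood test with Benjamini-Hochberg, adjusted p = 7.42e-06).

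Of complex IV, mt-Co2 was at 3200.3, 3069, 3333 and 3501 CPM and then 3929.8, 4598, 4654 and 4862 CPM, a change of 0.50 ± 0.074 (adjusted p = 0.00157). mt-Co3 was at 2858, 2949.8, 3081 and 2971 CPM and then 3258, 3647, 3618 and 3852 CPM, a change of 0.31 ± 0.068 (adjusted p = 0.0417). Neither gene overlapped between the groups, whereas the other complex IV mRNA, mt-Co1, did and was not called (0.20 ± 0.071, adjusted p = 0.360).

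Of complex I, mt-Nd1 was at 9897, 8954, 9747 and 10285 CPM in the wild types and 11387, 13628, 13415 and 14071 CPM in the knockouts, a change of 0.47 ± 0.076 (adjusted p = 0.00376). mt-Nd3 was at 937, 981, 938 and 937 CPM and then 1000.1, 1305, 1292 and 1207 CPM, a change of 0.38 ± 0.077 (adjusted p = 0.0275). The remaining complex I mRNAs were not called: mt-Nd4 was at 0.29 ± 0.090, mt-Nd2 at 0.28 ± 0.084, mt-Nd5 at 0.08 ± 0.082, mt-Nd6, the only one of them on the light strand, at 0.06 ± 0.18, and mt-Nd4l at 0.02 ± 0.089. The ends of mt-Nd4l and mt-Atp8 lie inside the neighbouring mt-Nd4 and mt-Atp6, and reads in shared bases may have been counted for neither. The values within each of these pairs are therefore not changes of separate transcripts. Of ATP synthase, mt-Atp6 was at 4044, 4273, 4360.1 and 4409 CPM and then 4809, 5966, 5847 and 6568 CPM, a change of 0.48 ± 0.079 (adjusted p = 0.00423), and mt-Atp8 was at 0.27 ± 0.091 (adjusted p = 0.313).

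The ribosomal RNAs of the same genome were not called, mt-Rnr1 at 0.04 ± 0.098 (adjusted p = 0.945) and mt-Rnr2 at 0.06 ± 0.095 (adjusted p = 0.901), both just below 0 with a sex term over 16 libraries (-0.03 and -0.01). Reads of mt-Cytb per read of mt-Rnr2 numbered 0.184 to 0.267 over the wild types and 0.326 to 0.513 over the knockouts. Among the mRNAs too the rise was uneven: mt-Cytb made up 12.3% to 14.4% of the reads of the 13 among wild types and 15.6% to 18.2% among knockouts. In the 8 PWS-IC libraries that share was 13.4% to 16.1%. All these libraries capture poly(A) tails, so the ratios and shares compare captured reads. mt-Nd6 had few of them, with means of 17.1 CPM in the wild types and 17.2 CPM in the knockouts. Whether the ribosomal RNAs and mt-Nd6 were captured like the other mRNAs was not tested.

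**Figure D2:**
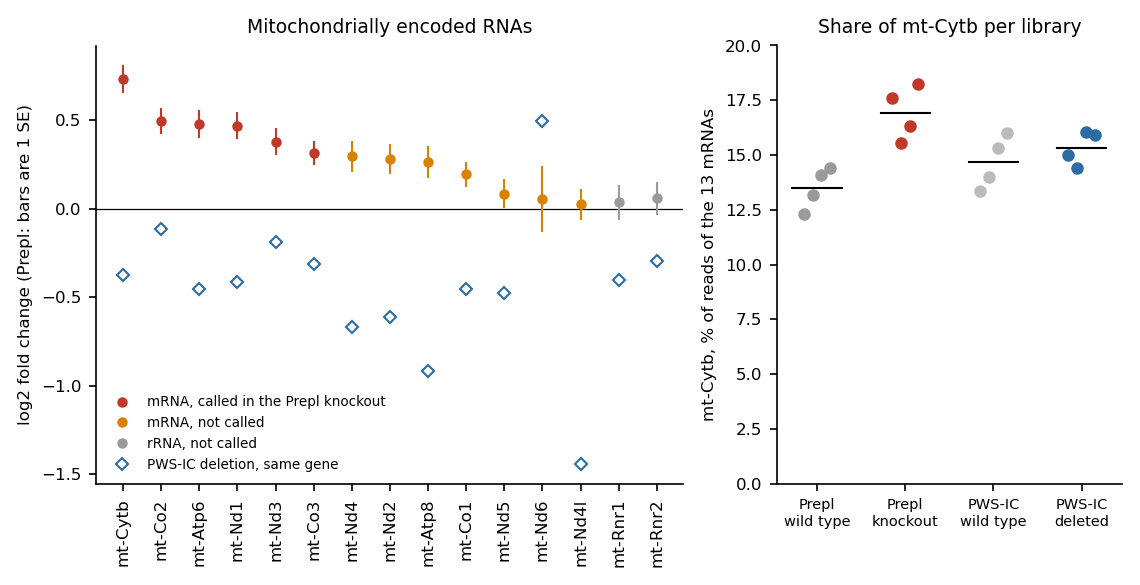
Left: log2 fold change in the Prepl knockout (points, bars of 1 SE, n = 4 per group) for the 13 mitochondrially encoded mRNAs and 2 ribosomal RNAs, with the change of the same gene in the PWS-IC deletion as blue diamonds. The Prepl values lie at or above 0 and the PWS-IC values below it except for mt-Nd6. Right: mt-Cytb as a percentage of the reads of the 13 mRNAs, 1 point a library, with group means as lines.

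Together the 13 mRNAs took 6.12%, 6.01%, 5.97% and 5.85% of the reads in genes in wild types 1 to 4 and 6.67%, 8.14%, 7.82% and 8.32% in knockouts 1 to 4. Every knockout was above every wild type, the nearest being knockout 1. The means were 5.99% ± 0.110 and 7.74% ± 0.742 (SD, n = 4), 1.75 percentage points apart, given without a test because the list was chosen with results of these data known. The share of the 2 ribosomal RNAs overlapped between the groups, at 4.04% to 5.44% and 3.85% to 5.07%, as did the share of reads outside genes. Of the 6 calls, 4 (mt-Cytb, mt-Co2, mt-Nd1 and mt-Atp6) were kept whichever library was left out. mt-Nd3 was lost without wild type 2 or 3 or knockout 2, 3 or 4 (adjusted p up to 0.142), and mt-Co3 without wild type 2, 3 or 4 or the same 3 knockouts (up to 0.221).

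Nuclear genes of the same complexes held no called member. The 36 nuclear complex I subunits (17 above 0, 19 below, median -0.01), the 34 nuclear subunits of complexes III, IV and V (16 above, 18 below, median -0.00) and the 32 tested genes of mitochondrial RNA synthesis, processing and decay (15 above, 17 below, median -0.00) had medians around 0. At an unadjusted p under 0.05 these lists had 1, 1 and 2 genes higher and 2, 0 and 1 lower (over all genes 4.92% and 4.51%).

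Of the called genes, 2 are nuclear pseudogenes copied from mitochondrial DNA. Stretches of their sequences are shown to describe how closely they match the mitochondrial genes. The stretches lie away from the 3' ends, which these libraries read. Alone they do not show how far the counts can be read apart. Gm28661 (chromosome 1, 24614885 to 24615565, minus strand) matches mt-Co2 at 681 of 681 bases. Bases 1 to 120 of mt-Co2, which Gm28661 repeats letter for letter, read in the GENCODE M21 transcripts:

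mt-Co2: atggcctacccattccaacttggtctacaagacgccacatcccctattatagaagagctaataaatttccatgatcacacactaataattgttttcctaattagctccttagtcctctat

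Gm13339 (chromosome 2, 22590024 to 22590533, minus strand) matches mt-Nd2 at 493 of 510 bases (96.67%), with 17 mismatches. The stretch of 120 bases with the most of them, bases 662 to 781 of mt-Nd2 and 134 to 253 of Gm13339, holds 7, in capitals:

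mt-Nd2: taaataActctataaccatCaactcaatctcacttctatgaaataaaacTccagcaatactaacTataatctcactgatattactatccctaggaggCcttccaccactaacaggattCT
Gm13339: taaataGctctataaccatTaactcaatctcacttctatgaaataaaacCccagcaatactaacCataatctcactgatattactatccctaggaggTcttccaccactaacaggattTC

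Gm28661 was at 24.8, 28.8, 28.6 and 31.8 CPM in the wild types and 48.1, 39.7, 40.2 and 60.6 CPM in the knockouts (0.76 ± 0.12, adjusted p = 0.00423), and Gm13339 at 25.6, 23.6, 34.1 and 25.3 CPM and then 30.6, 54.2, 52.8 and 42.9 CPM (0.77 ± 0.15, adjusted p = 0.0262). With no mismatch, reads inside the matching bases fit Gm28661 and mt-Co2 alike, and reads whose alignment was not unique were left out of the counts. That limit falls on both genes. Which transcript the counted reads of Gm28661 came from is not known, so its call is not taken as independent of that of mt-Co2. Gm13339 overlapped between the groups and was lost without wild type 2 or knockout 2, 3 or 4 (adjusted p up to 0.137). Its parent mt-Nd2 was not called. Another called pseudogene, Gm10116 (chromosome 13, 74406397 to 74407325), is listed by RefSeq as Ftl1-ps1, a copy of the ferritin light chain gene. It was at 21.7, 27.04, 30.3 and 30.3 CPM and then 37.4, 33.5, 45.1 and 49.04 CPM (0.62 ± 0.13, adjusted p = 0.0298; lost without wild type 2 or knockout 3 or 4), and reads of the parent gene could have been counted there.

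Txnip rose in the knockouts. It encodes a protein that binds thioredoxin and, as a member of the arrestin family, takes glucose transporters off the cell surface. It was at 74.5, 51.3, 39.3 and 51.8 CPM in the wild types and 89.98, 84.7, 91.7 and 155 CPM in the knockouts, where knockout 4 was far above the other 3. The groups did not overlap, and the log2 change was 1.00 ± 0.16 (edgeR's quasi-likelihood test with Benjamini-Hochberg, adjusted p = 0.00376), kept whichever library was left out, at 0.76 to 1.19.

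Txnip also differed by sex in the PWS-IC libraries. Their males stood at 92.3, 158, 176 and 128 CPM and their females at 73.4, 67.8, 50.9 and 93.2 CPM, a log2 difference of 0.97 ± 0.15 (adjusted p = 3.81e-04). Of the knockouts, all male, knockout 4 lay inside the range of those males and the other 3 just below it, while the wild types of the Prepl comparison, mostly female, lay at or below the level of those females. The male wild type 4, at 51.8 CPM, lay within the range of the female wild types. With a sex term in a fit of all 16 libraries the knockout change was 0.43 (adjusted p = 0.511), and with a sex term in the 8 libraries 1.05 (adjusted p = 0.479).

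Txnip is a known target of the glucose-sensing factors Mondo and Chrebp with their partner Mlx, which bind paired E-box-like sites. The 250 bases before its start in the RefSeq promoter table (GRCm38, chr3:96557707-96557956, plus strand) are shown with the paired site in capitals, 85 to 69 bases before the start:

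Txnip promoter: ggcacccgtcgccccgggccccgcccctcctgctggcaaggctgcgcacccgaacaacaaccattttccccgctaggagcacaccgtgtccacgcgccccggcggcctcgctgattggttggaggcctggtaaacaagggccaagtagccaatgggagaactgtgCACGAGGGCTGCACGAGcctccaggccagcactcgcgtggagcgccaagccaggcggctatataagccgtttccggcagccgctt

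The pattern searched, CACGAG followed after any 5 bases by CACGAG again, was spelled after this promoter. It was found, with both strands read, in 1 of 32851 promoter windows of that length (0.00304%), while CACGAG alone, which the pair contains, was in 5.37%. The canonical E-box CACGTG was in 6.02% of windows and not in this one. Of 18 called genes with an entry, CACGAG was in the windows of Txnip, Mt2 and Lancl1. A match is a description of letters.

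The other 10 tested members of the Txnip, arrestin and Mlx list were not called (list median -0.07, 4 of 11 above 0). The closest relative of Txnip, Arrdc4, was at 0.15 ± 0.17 (adjusted p = 0.834) here, at -0.43 with a sex term over 16 libraries, and at 1.11 ± 0.13 for male against female in the PWS-IC libraries (adjusted p = 4.82e-06). Thioredoxin itself, Txn1, was at -0.13 ± 0.078 (adjusted p = 0.628). The glucose transporter gene Slc2a1 was at 27.4, 24.3, 27.9 and 27.6 CPM in the wild types and 31.9, 59.1, 28.1 and 47.3 CPM in the knockouts. All knockouts were above all wild types, highest in knockouts 2 and 4, but the change of 0.67 ± 0.17 did not pass (adjusted p = 0.105). The glycolysis list had no called gene among 22 (8 above 0, 14 below, median -0.06, or -0.15 with a sex term over 16 libraries). Its changes ran from -0.66 to 0.67, the highest being that of Slc2a1. At an unadjusted p under 0.05 there were 1 higher and 4 lower (over all genes 4.92% and 4.51%). Without overlap in CPM there were 1 higher and 4 lower (over all genes 1.6% and 4.09%).

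Of the glycogen list, 1 of 19 tested members was called, higher (8 above 0, 11 below, median -0.07). Ppp1r3e, a subunit that brings protein phosphatase 1 to glycogen, was at 0.221, 0.861, 1.38 and 0.190 CPM in the wild types and 2.53, 4.17, 2.38 and 3.77 CPM in the knockouts. That was 15 reads against 66, a log2 change of 2.20 ± 0.46 (adjusted p = 0.0311) without overlap. The call was lost without wild type 2 or 4 or any 1 knockout (adjusted p up to 0.146). The sister subunits Ppp1r3c, at -0.51 ± 0.18 (adjusted p = 0.320), and Ppp1r3d, at -0.45 ± 0.24 (adjusted p = 0.560), had the opposite sign and were not called; with a sex term in the 8 libraries Ppp1r3d was at 0.04.

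Redox and metal genes changed singly. Of 27 genes of Nrf2 antioxidant and carbonyl defence 1 was called higher and 1 lower (13 above 0, 14 below, median -0.02). Cbr1, a carbonyl reductase that clears reactive aldehydes and ketones, was at 32.5, 32.9, 56.2 and 31.05 CPM in the wild types and 59.8, 56.5, 59.8 and 62.9 CPM in the knockouts. Wild type 3 stood at the edge of the knockouts while the other 3 wild types were well below. The change was 0.67 ± 0.14 (adjusted p = 0.0262), lost without wild type 2 or 4 or any 1 knockout (up to 0.158). Lancl1, which binds glutathione and protects neurons from oxidative stress, was at 50.6, 56.2, 45.3 and 55.8 CPM and then 35.4, 37.7, 38.7 and 30.4 CPM, with no overlap, a change of -0.51 ± 0.11 (adjusted p = 0.0307; lost without the same libraries, up to 0.189). All 8 PWS-IC libraries, at 51.8 to 76.8 CPM, lay above the knockouts. Hmox1, heme oxygenase, was at 1.99, 1.72, 1.21 and 2.10 CPM and then 5.45, 2.18, 4.03 and 1.79 CPM, high in knockouts 1 and 3 alone (0.99 ± 0.38, adjusted p = 0.399), and the mitochondrial peroxiredoxin Prdx3 was at -0.41 ± 0.12 without overlap (adjusted p = 0.202).

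Among 17 metallothionein and metal handling genes 1 was called, higher (10 above 0, 7 below, median 0.03). The zinc-binding Mt2 was at 163, 120.1, 146 and 149.7 CPM in the wild types and 159.5, 217, 184 and 252 CPM in the knockouts, so knockout 1 fell inside the wild-type range. The change was 0.52 ± 0.11 (adjusted p = 0.0303), lost without wild type 2 or 3 or knockout 2, 3 or 4 (up to 0.192). Mt1, its neighbour, put the knockouts in the same order, with 194, 124, 125 and 130.3 CPM and then 142, 213, 149 and 214 CPM (0.37 ± 0.13, adjusted p = 0.361). Both are induced by glucocorticoids, and that list of 13 tested genes, which holds Mt2, had 1 called, 10 above 0 and a median of 0.17. Its other members with the smallest p were the inhibitor Nfkbia at 0.29 ± 0.11, the sulfotransferase Sult1a1 at 0.81 ± 0.31, the transcription factor Zbtb16 at 0.48 ± 0.22 and the clock gene Per1 at 0.31 ± 0.17 (adjusted p = 0.371, 0.395, 0.492 and 0.591).

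Of the 26 genes called higher, 6 lay on chromosome 14, between 46775567 and 66921023. Of the 163 tested genes in that span of 20.1 Mb these 6 were called (3.68%), and none lower. The median over the span was 0.05, with 65 genes below 0. Medians of whole autosomes lay between -0.02 and 0.01, that of chromosome 14 at 0.006. Of all 442 tested genes of chromosome 14 the called share was 1.36%, and across chromosomes 1 to 13 and 15 to 19 it was between 0% and 0.426%. The span was drawn around the called genes after their values were seen.

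The largest rise among them was in Gm26782 (50870324 to 50880603), annotated as an antisense RNA. It was at 3.31, 3.96, 5.35 and 2.10 CPM in the wild types and 12.5, 25.2, 15.6 and 19.5 CPM in the knockouts, a change of 2.32 ± 0.25 (adjusted p = 8.77e-06), or 4.98-fold, kept whichever library was left out. It shares its first bases with the start of Tep1 on the other strand, which had 37 wild-type reads and 24 knockout reads and was too low to test. The PWS-IC wild types stood at 20.2 to 23.1 CPM, inside the knockout range, and the deleted mice at 35.2 to 42.1 CPM. All 4 Prepl wild types were thus below the other 12 libraries.

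Cnih1, cornichon, which carries cargo out of the endoplasmic reticulum, was at 49.3, 43.9, 48.97 and 47.2 CPM and then 56.3, 72.6, 64.9 and 79.02 CPM (0.56 ± 0.10, adjusted p = 0.0109; lost without wild type 2 or knockout 2 or 4, up to 0.0787). Acin1, a component of a splicing-dependent complex on mRNA, was at 243, 192, 212 and 199 CPM and then 293, 304, 247 and 254 CPM (0.41 ± 0.083, adjusted p = 0.0262; lost without wild type 2, 3 or 4 or knockout 1 or 2, up to 0.189). Its neighbour on the other strand, 1700123O20Rik, had 435 and 417 reads and a log2 change of 0.03. Like Gm26782, Cnih1, Acin1 and Ppp1r3e were lower in the 4 Prepl wild types than in each of the other 12 libraries, with PWS-IC wild types at 78.4 to 91.2, 247 to 288 and 2.90 to 3.79 CPM.

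Samd4, which encodes the RNA-binding repressor Smaug, was at 38.9, 42.5, 37.9 and 35.2 CPM and then 51.03, 51.98, 49.3 and 61.7 CPM (0.50 ± 0.099, adjusted p = 0.0262; lost without wild type 2, 3 or 4 or knockout 2 or 4, up to 0.111). Pnma2, a domesticated retrotransposon gag gene, was at 51.3, 39.1, 34.5 and 40.8 CPM and then 60.96, 52.98, 61.97 and 52.02 CPM (0.50 ± 0.11, adjusted p = 0.0498; kept only without wild type 1, up to 0.226 otherwise). For both the PWS-IC wild types, at 34.3 to 51.3 and 36.7 to 69.5 CPM, reached from wild-type to knockout levels. Wdhd1, a DNA replication gene inside the span, was near the threshold and lower in the 4 wild types than in the other 12 libraries, at 7.07, 6.37, 7.24 and 6.86 CPM and then 10.7, 15.3, 8.62 and 16.5 CPM (0.92 ± 0.21, adjusted p = 0.0638); it was chosen after its values were seen.

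**Figure D3:**
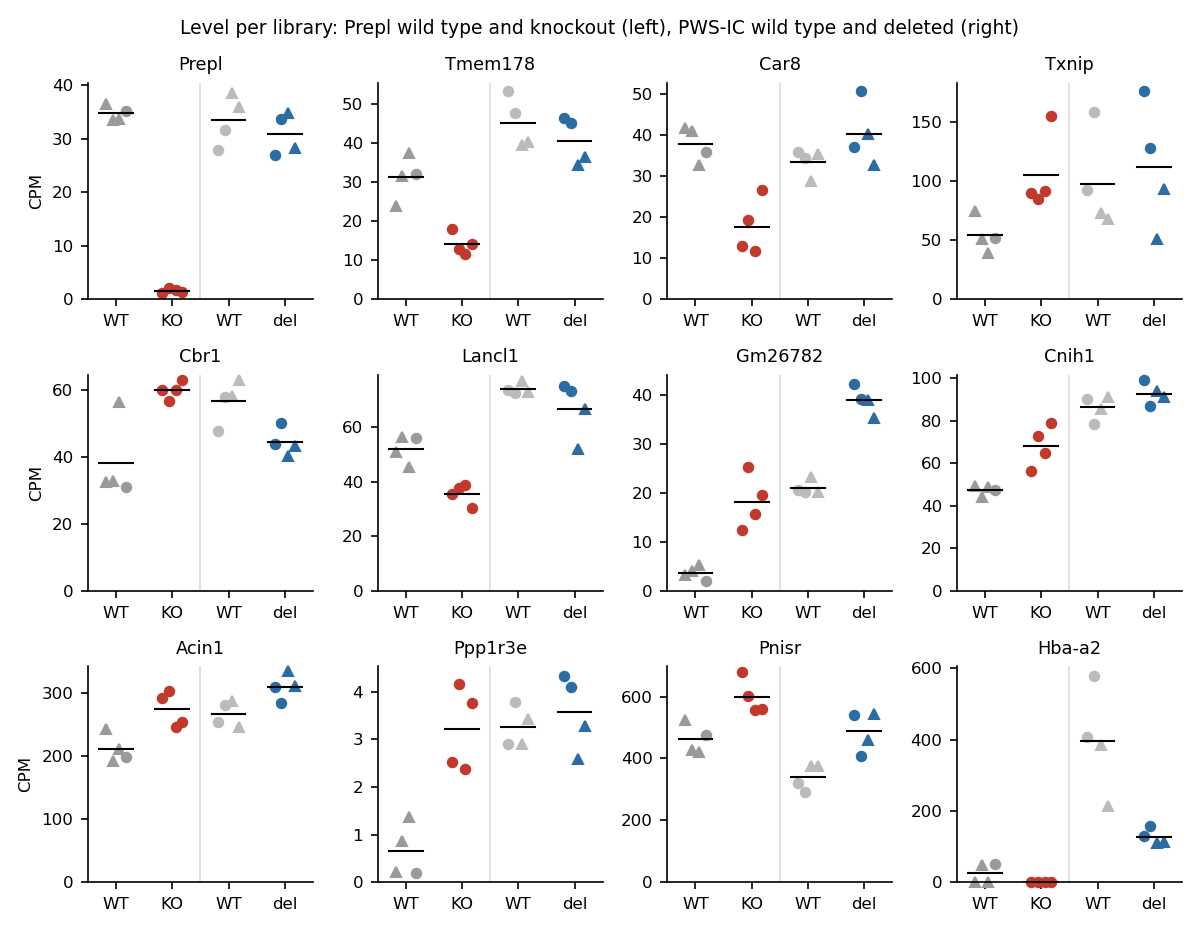
CPM per library for 12 genes in the 4 groups, with circles for male and triangles for female libraries and lines for the group means; the first pair of groups is the Prepl wild types and knockouts, the second the PWS-IC wild types and deleted mice. For Prepl, Tmem178, Car8 and Lancl1 the knockouts stand apart from the other groups, whereas for Gm26782, Cnih1, Acin1 and Ppp1r3e the Prepl wild types do.

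The position of the groups among all 16 libraries differed between the called genes. In 12 of the 36 the 4 knockouts lay outside the range of the other 12 libraries, among them Prepl, mt-Cytb, Tmem178, Car8, Rassf3, Lancl1 and Eml1. In 9 the 4 wild types did: Gm26782, mt-Co2, Gm28661, Cnih1, Dbpht2, RP23-152O2.3, Acin1, mt-Nd3 and Ppp1r3e. In 15 neither did. Over all tested genes the knockouts lay outside in 122 (0.889%) and the wild types in 197 (1.44%). The called genes were selected on a gap between these groups, so such positions are more frequent among them by construction. For the 9, a change in the knockouts cannot be told apart from wild types that differ from the rest of the series.

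Several called genes on other chromosomes had high counts and modest rises. Pnisr, an arginine/serine-rich nuclear protein, was at 526, 427, 422 and 476 CPM in the wild types and 679, 600.2, 556 and 559 CPM in the knockouts (0.41 ± 0.079, adjusted p = 0.0261). Luc7l3, a protein of the U1 splicing particle family, was at 603, 499, 482 and 521 CPM and then 756, 698, 622 and 630.2 CPM (0.40 ± 0.078, adjusted p = 0.0262). Both had no overlap and were lost without wild type 2 or 3 or knockout 1 or 2, with an adjusted p of up to 0.156 for each.

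Cbx1, the heterochromatin protein HP1 beta, was at 232, 219, 218 and 228 CPM and then 372, 249.4, 283 and 323 CPM (0.49 ± 0.086, adjusted p = 0.0105; lost without wild type 2 or knockout 4, up to 0.0638). Miat, a long noncoding RNA kept in the nucleus of neurons, was at 127, 107, 101 and 111 CPM and then 175, 144, 119.7 and 145 CPM (0.42 ± 0.093, adjusted p = 0.0498), with knockout 3 inside the wild-type range, and kept its call only without wild type 1 or knockout 3 (up to 0.234 otherwise). In Pnisr, Luc7l3, Cbx1 and Miat the highest wild type was wild type 1 and the highest knockout was knockout 1, the libraries with the largest shares of reads outside genes in their groups (19.6% and 19.2%). In the PWS-IC comparison, where that share was 11.4% to 13.7% in the wild types and 17.7% to 20.1% in the deleted mice, the same genes had log2 changes of 0.53 ± 0.10, 0.29 ± 0.16, 0.30 ± 0.10 and 0.35 ± 0.12, of which Pnisr was called. The part of that share in the knockout values was not tested.

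The centrosomal gene Cep70 was at 42.2, 53.2, 47.8 and 47.2 CPM and then 62.5, 64.3, 58.7 and 65.1 CPM (0.43 ± 0.090, adjusted p = 0.0345). The KH-domain gene 2810403A07Rik, now named Khdc4 in RefSeq, was at 71.2, 62.2, 70.2 and 74.1 CPM and then 88.8, 86.7, 84.7 and 92.1 CPM (0.38 ± 0.080, adjusted p = 0.0345). Neither overlapped between the groups. Cep70 kept its call only without wild type 1 (adjusted p up to 0.127 otherwise), and 2810403A07Rik only without wild type 1 or 4 (up to 0.257).

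Car8 fell with the smallest p outside chromosome 17. It encodes a carbonic anhydrase-related protein without enzyme activity that binds the inositol trisphosphate receptor and is concentrated in Purkinje cells of the cerebellum. It was at 41.5, 40.99, 32.6 and 35.8 CPM in the wild types and 13.05, 19.2, 11.7 and 26.6 CPM in the knockouts, with knockout 4 nearest the wild types. The change was -1.06 ± 0.17 (edgeR's quasi-likelihood test with Benjamini-Hochberg, adjusted p = 0.00376), kept whichever library was left out, and the PWS-IC libraries, at 28.8 to 50.6 CPM, were all above the knockouts. Of 10 tested Purkinje markers Car8 was the called one (4 above 0, 6 below, median -0.13). Pcp2 was at 7.96, 5.51, 2.59 and 4.00 CPM and then 3.51, 0.992, 1.47 and 3.77 CPM (-0.98 ± 0.38, adjusted p = 0.404), Calb1 at -0.21 ± 0.097 (adjusted p = 0.514) and Homer3 at 0.35 ± 0.16 (adjusted p = 0.492). The summed level of the Purkinje list overlapped between the groups, at 273 to 324 CPM and 244 to 303 CPM, as did that of the cerebellar granule cell list, at 1432 to 1680 CPM and 1568 to 1753 CPM. Fewer cells of a type and less RNA per cell cannot be told apart in whole tissue.

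Rassf3, a Ras-association family gene, was at 14.8, 17.7, 18.1 and 11.8 CPM and then 7.596, 5.75, 9.53 and 7.35 CPM (-1.01 ± 0.19, adjusted p = 0.0205; lost without wild type 2 or 3 or knockout 1, 2 or 4, up to 0.103). Eml1, a microtubule-binding protein, was at 27.2, 29.5, 25 and 23.2 CPM and then 17.3, 17.7, 15.4 and 15.5 CPM (-0.63 ± 0.13, adjusted p = 0.0286; lost without wild type 2 or 3 or any 1 knockout, up to 0.189). Gm16596, antisense to the end of Eml1, had 44 and 42 reads and a change of 0.02. The noncoding Dbpht2 was at 64.97, 69.9, 57.6 and 54.1 CPM and then 42.1, 43.7, 44.7 and 38.3 CPM (-0.51 ± 0.099, adjusted p = 0.0261; lost without wild type 2 or knockout 1, 2 or 4, up to 0.156), against 11.8 to 17.04 CPM in the 8 PWS-IC libraries. 1500009C09Rik, a coding gene without an established role, was at 32.9, 22.7, 33.1 and 53.9 CPM and then 21.6, 16.5, 19.1 and 20.4 CPM (-0.84 ± 0.18, adjusted p = 0.0417; lost without wild type 3 or 4 or any 1 knockout, up to 0.164).

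The clone-named genes RP23-109J14.2 and RP23-247F18.4 were higher (1.01 ± 0.20 and 1.21 ± 0.25) and RP23-152O2.3 lower (-1.60 ± 0.32). The annotation used here places none of them. Their group means lay between 2.76 and 11.4 CPM, the groups did not overlap, and each was lost without wild type 2 and at least 3 other libraries (adjusted p up to 0.192, from 0.0262, 0.0303 and 0.0262 with all libraries).

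Hba-a2, an alpha-globin gene, had the largest fall after Prepl, on uneven wild types. It was at 2.43, 48.7, 1.38 and 50.9 CPM in the wild types and 1.95, 1.59, 2.38 and 2.38 CPM in the knockouts. Wild types 2 and 4 were high while wild types 1 and 3 were at the level of the knockouts, so the groups overlapped, and the change of -3.60 ± 0.72 (adjusted p = 0.0262) was lost without wild type 2 or 4 or any 1 knockout (up to 0.133).

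Its neighbour Hba-a1 makes the same globin, and the transcripts differ at 1 of 538 shared bases, position 381 of the 429 coding bases. That base, 122 bases before the end of the shared transcript, is in capitals in coding bases 351 to 410 (GENCODE M21):

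Hba-a1: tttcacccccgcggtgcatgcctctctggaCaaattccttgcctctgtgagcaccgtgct
Hba-a2: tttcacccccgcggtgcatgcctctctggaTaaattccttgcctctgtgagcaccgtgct

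Hba-a1 was not called, at 392.1, 196, 269 and 232 CPM in the wild types and 298, 309, 301 and 236 CPM in the knockouts (0.11 ± 0.13, adjusted p = 0.860; -0.16 with a sex term over 16 libraries). Summed, the pair stood at 245 to 394 CPM in the wild types and 238 to 310 CPM in the knockouts, overlapping. Within the shared bases, reads that miss the differing base fit both genes, and reads whose alignment was not unique were not counted. The sum may therefore fall short of the alpha-globin level, and the share of each gene may rest on few positions. Hba-a2 made up 19.9% and 17.99% of the pair in wild types 2 and 4 and 0.510% to 1.00% in wild types 1 and 3 and the 4 knockouts, against 32.6% to 37.1% in the 8 PWS-IC libraries. The 8 libraries thus fall on 2 levels of that share, and the split does not follow genotype within the wild types. The other 8 tested blood genes were not called, the nearest being Hbb-bt at -0.45 ± 0.18 (adjusted p = 0.448), where wild type 1 alone was high at 225 CPM.

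Other lists held no called gene, and several had medians away from 0. Of 79 cytosolic ribosomal protein genes 68 were above 0, with a median of 0.11. At an unadjusted p under 0.05 there were 24 higher and 1 lower (over all genes 4.92% and 4.51%). Rpl7 was at 117, 129, 132 and 134 CPM and then 146, 149, 146 and 156 CPM (0.26 ± 0.070, adjusted p = 0.159), and Rpl23 at 254, 317, 349.5 and 334 CPM and then 382, 373, 353 and 373 CPM (0.27 ± 0.079, adjusted p = 0.202). In both the lowest value was that of wild type 1, and the list sums, at 20183 to 25272 CPM in the wild types and 24224 to 25471 CPM in the knockouts, overlapped. In the sex-term fit of 16 libraries the list median was 0.06.

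Cholesterol synthesis genes leaned the other way, with 2 of 24 above 0 and a median of -0.12. At an unadjusted p under 0.05 there were 1 higher and 6 lower (over all genes 4.92% and 4.51%). Without overlap in CPM there were 1 higher and 5 lower (over all genes 1.6% and 4.09%). The changes ran from -0.45 to 0.49, the highest being that of Sc5d, a desaturase of the pathway and 1 of the 2 above 0. Sc5d was not called, at 17.7, 20.5, 21.9 and 19.8 CPM and then 27.1, 31.5, 27.5 and 23.8 CPM (0.49 ± 0.13, adjusted p = 0.124).

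Endoplasmic reticulum chaperones and stress genes had 3 of 22 above 0 and a median of -0.12. At an unadjusted p under 0.05 there were 0 higher and 7 lower (over all genes 4.92% and 4.51%). The chaperone Calr was at 247, 307, 329.5 and 300.2 CPM and then 252, 172, 249.9 and 219 CPM (-0.37 ± 0.096, adjusted p = 0.124), and Manf, a secreted stress-induced factor, at 56.8, 54.8, 62.2 and 53.7 CPM and then 46.2, 36.7, 49.7 and 44.9 CPM (-0.32 ± 0.099, adjusted p = 0.232). For male against female in the PWS-IC libraries the list median was 0.24, and Calr was at 0.77 ± 0.098. With a sex term over 16 libraries the knockout median was -0.25, and Calr passed the test, at -0.82 (adjusted p = 0.00758).

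Hypothalamic neuropeptides had 16 of 22 members tested, 3 above 0 and a median of -0.13. Their sums in plain CPM, 465 to 488 in the wild types and 398 to 455 in the knockouts, did not overlap. The gap was narrow and was not checked after scaling, where TMM factors were 1.006 to 1.025 in the wild types and 0.975 to 0.998 in the knockouts. Cck was at 88.4, 74.8, 66.4 and 81.9 CPM and then 64.9, 45.6, 65.6 and 63.9 CPM (-0.34 ± 0.11, adjusted p = 0.250), with knockout 2 the lowest. The groups did not overlap in plain CPM, but wild type 3 and knockout 3 were close. Their TMM factors, 1.013 and 0.980, are enough to make the groups overlap. Oxt, at -0.52 ± 0.29, Gal, at -0.46 ± 0.27, and Penk, at -0.20 ± 0.11, were not called either (adjusted p = 0.600, 0.606 and 0.615). Kiss1 had no read in the 8 libraries. Synaptic vesicle release (8 of 23 above 0, median -0.09), prohormone processing (8 of 16, median -0.02), the citric acid cycle (10 of 27, median -0.05), fatty acid oxidation (10 of 23, median -0.06), immediate early genes (13 of 22, median 0.03), heat shock chaperones (8 of 17, median -0.00), the circadian clock (9 of 18, median -0.03) and antigen presentation (5 of 11, median -0.02) held no called gene. At an unadjusted p under 0.05 each of these lists had 0 to 2 genes higher and 0 to 3 lower (over all genes 4.92% and 4.51%).

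Markers of cell types and brain regions, 17 lists, held 2 called genes, Car8 and Hba-a2. Medians were -0.03 for neurons, -0.09 for astrocytes, -0.15 for oligodendrocytes, 0.02 for microglia, 0.07 for endothelium and pericytes, and 0.04 for meningeal fibroblasts (-0.02 with a sex term over 16 libraries). The oligodendrocyte list had 6 of 10 members tested, with sums of 160 to 233 CPM in the wild types and 145 to 207 CPM in the knockouts. Its median was -0.20 with a sex term over 16 libraries. With a sex term in the 8 libraries its members Cldn11 and Cnp turned above 0. Ependymal markers had 5 of 10 tested, all below 0 (median -0.17, or -0.18 with a sex term over 16 libraries). With a sex term in the 8 libraries Rarres2 and Foxj1 of this list turned above 0. The sums of the ependymal list in plain CPM did not overlap, 37.5 to 48.2 against 32.8 to 36.1. That narrow gap was not checked after TMM scaling. Each member was low: Rsph1 was at 4.64, 6.37, 6.21 and 10.1 CPM and then 4.28, 5.36, 5.32 and 3.18 CPM (-0.55 ± 0.26, adjusted p = 0.520). Choroid plexus sums overlapped, at 961 to 1514 CPM and 1009 to 1225 CPM. Striatal, cortical and hippocampal, thalamic and midbrain, and olfactory lists had medians of -0.09, 0.01, 0.10 and -0.00 and no called gene. With a sex term over 16 libraries the thalamic and midbrain median turned to -0.05. The part of such differences in cell or region content in the called genes was not tested.

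**Figure D4:**
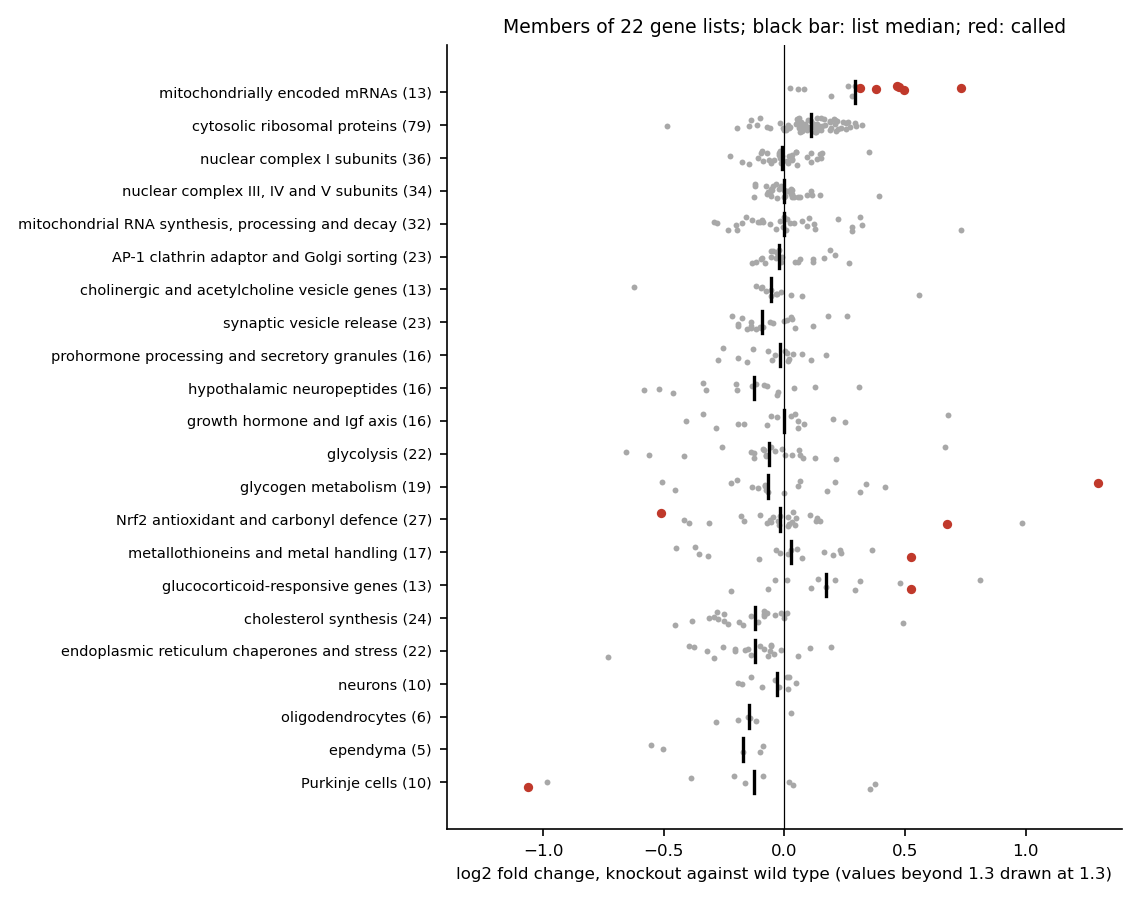
Log2 fold change of each tested member (grey points, called members in red) of 22 gene lists, with the number tested in brackets and a black bar at the list median; values beyond 1.3 are drawn at 1.3. The mitochondrial mRNAs sit to the right of 0 with a median of 0.29, the ribosomal protein genes slightly to the right at 0.11, and the nuclear respiratory subunits around 0.

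Sex was examined because it overlaps with genotype. In the PWS-IC libraries, 4 male and 4 female with 2 of each in both groups, a sex term called 391 of 13636 genes (2.87%), 124 higher and 267 lower in males. There the males are replicates 1 and 2 and the females replicates 3 and 4, so sex cannot be told apart from anything else that goes with those numbers. Of the 34 called Prepl genes tested there, 6 were called by sex. Txnip was the 1 whose male-minus-female direction was that of the knockout change; Tmem178 (0.39), Cbx1 (-0.28), Luc7l3 (-0.47), Hba-a2 (0.59) and Pnma2 (-0.57) had the opposite one.

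With a sex term over 16 libraries 36 genes were called again, 18 of them among the first 36, and all 36 kept their direction. Those with the lowest adjusted p values were Prepl (-4.28), Gm26782 (2.32), Tmem178 (-1.35) and mt-Cytb (0.73). mt-Nd1 and mt-Atp6 then missed the threshold narrowly, at 0.35 (adjusted p = 0.0693) and 0.39 (adjusted p = 0.0524), and mt-Co2 passed at 0.39 (adjusted p = 0.0283). With a sex term in the 8 libraries, where the knockouts are in effect set against the single male wild type, 6 genes passed, of which 5 belong to the 36, namely Prepl, Gm26782, mt-Cytb, Hba-a2 and 1500009C09Rik (-1.44). The Y-linked Uty, Eif2s3y and Ddx3y were not called in the main comparison, at 2.21 ± 0.60, 1.87 ± 0.59 and 1.86 ± 0.63, and wild type 4 carried them at the level of the knockouts (19.6, 48.4 and 85.3 CPM). Xist, high in the 3 female wild types, did not pass the filter, which needs 4 libraries, and was not tested.

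**Figure D5:**
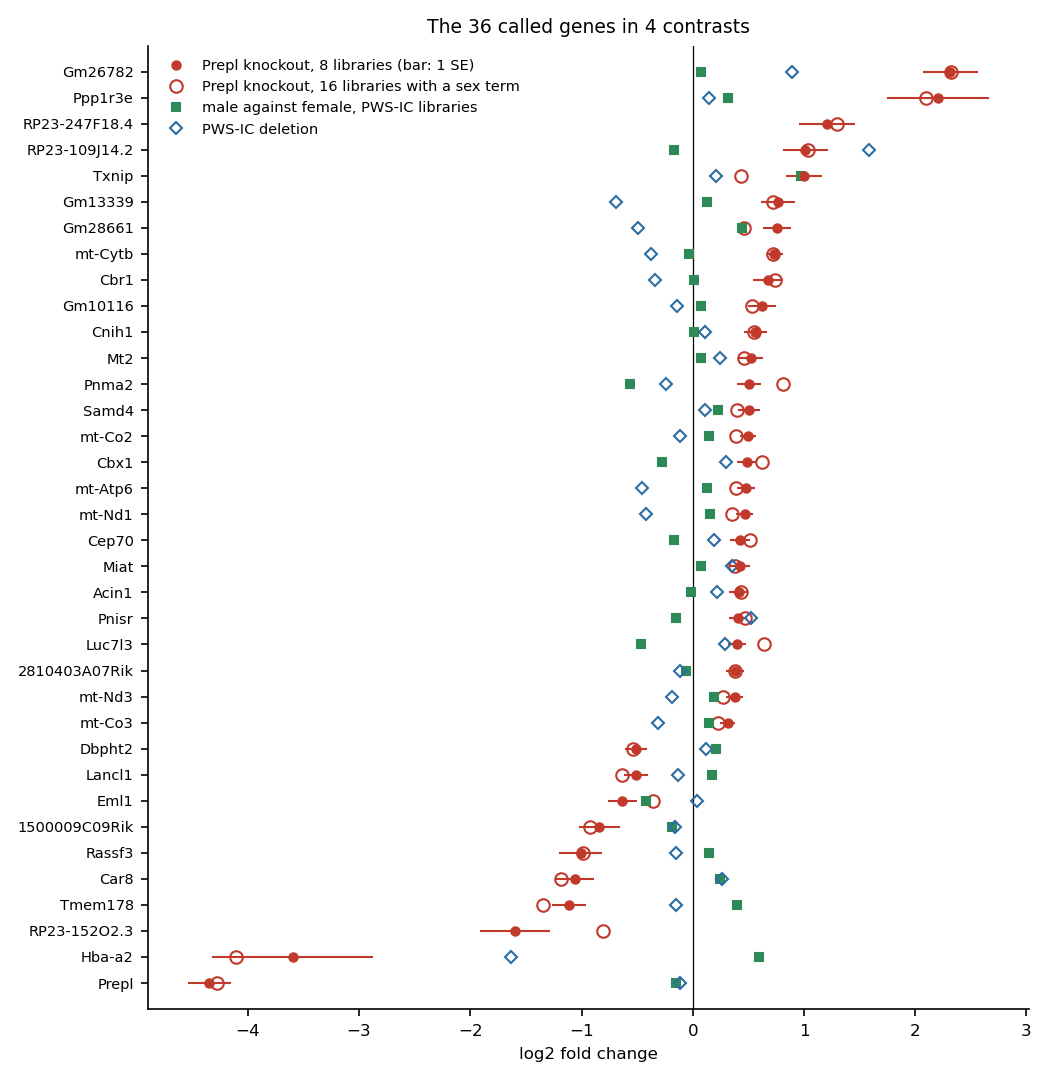
Log2 fold changes of the 36 called genes (rows) in the Prepl knockout (filled red circles, bars of 1 SE), in the Prepl knockout with a sex term over 16 libraries (open red circles), for male against female in the PWS-IC libraries (green squares) and in the PWS-IC deletion (blue diamonds). The open circles stay on the side of the filled ones in all 36; for Txnip the open circle moves from 1.00 to 0.43 and the green square sits at 0.97.

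The study's own comparison was between the changes of the Prepl knockout and those of the PWS-IC deletion. Of the 36 called genes 34 were tested in the PWS-IC comparison, where 616 of 13636 genes were called (4.52%). There 8 of the 34 were called, 4 in the same direction and 4 in the opposite one. Same-direction genes were Gm26782 (0.89 ± 0.12), Pnisr, RP23-109J14.2 (1.58 ± 0.34) and Hba-a2 (-1.63 ± 0.20). Opposite ones were mt-Cytb (-0.37 ± 0.071), mt-Nd1 (-0.42 ± 0.075), mt-Atp6 (-0.45 ± 0.074) and mt-Co3 (-0.31 ± 0.078).

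The difference of the changes, tested in 1 fit of all 16 libraries, passed for 112 of 14392 genes (0.778%), 12 of them among the 36. Of the 13 mitochondrial mRNAs 12 differed, with mt-Nd6 the exception. mt-Cytb differed by 1.10 ± 0.11 (edgeR's quasi-likelihood test with Benjamini-Hochberg, adjusted p = 3.33e-08), mt-Atp6 by 0.93 ± 0.11 (adjusted p = 5.59e-06) and mt-Nd1 by 0.88 ± 0.11 (adjusted p = 8.40e-06), with mt-Co2, mt-Co3 and mt-Nd3 between 0.56 and 0.62. The other 6, mt-Nd2, mt-Nd4, mt-Atp8, mt-Co1, mt-Nd5 and mt-Nd4l, none of them called in the knockout, differed by 0.56 to 1.46. Of nuclear genes Prepl, Tmem178 (-0.97 ± 0.21), Car8 (-1.33 ± 0.24), Cbr1 (1.02 ± 0.19), Gm26782 (1.42 ± 0.28), Gm13339 (1.45 ± 0.33) and Hba-a1 (1.63 ± 0.27) differed, and Igf1r, uncalled in the knockout, by 1.32 ± 0.19 (adjusted p = 5.08e-05). Txnip did not pass, with a difference of 0.79 ± 0.37 (adjusted p = 0.393).

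How firmly the 36 calls stand depends on single libraries. Without wild type 1, 103 genes were called and all 36 were kept. Without wild type 2, 3 or 4 the counts were 12, 22 and 51, with 11, 19 and 25 of the 36 kept, and without knockout 1, 2, 3 or 4 they were 23, 16, 26 and 17, with 18, 14, 19 and 14 kept. The 10 genes kept in all 8 of these fits were Prepl, mt-Cytb, Gm26782, Tmem178, mt-Co2, Txnip, Car8, mt-Nd1, Gm28661 and mt-Atp6. No gene of the 36 changed direction in any of them.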

How the data were processed

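The values are read counts per gene for 8 mouse brain libraries, with the 8 PWS-IC libraries as outside reference. The authors made them from QuantSeq 3' reads and deposited 1 table of whole-number counts per library, per the file contents. HISAT2, HTSeq and the mm10 build are named in the submitters' processing notes, without versions; the annotation and the strand setting are not given here by any label or header. Lines that name no gene (reads outside genes, ambiguous, not aligned or not unique) were removed, which left 40.95% to 44.03% of the tabled reads. From the counts, edgeR 4.0.16 in R 4.3.3 filtered genes (filterByExpr, at least 10 reads, total of at least 15), scaled with TMM factors and tested knockout against wild type with the quasi-likelihood test and Benjamini-Hochberg adjustment at 0.05; CPM values are unscaled. The code was tested on simulated data. Alternatives were limma 3.58.1 voom, DESeq2 1.42.0, other scalings and filters, sex terms and leaving out each library. Sex was read from Xist and 4 Y-linked genes. Same-numbered libraries correlated at -0.067 to 0.046, so the numbers do not pair them, and no pair was a repeat deposit (chi-square per degree of freedom at least 2.38). Positions and transcripts are from GENCODE M21 and promoters from RefSeq (GRCm38).

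Named genes are Prepl, every called gene, up to 4 further members with the smallest unadjusted p of each list that holds a called gene or whose median lies at least 0.1 from that of all genes, and up to 3 of the lists for Prepl relatives, AP-1, cholinergic genes, the growth hormone axis and glycogen. The remaining mitochondrial RNAs, Hba-a1, Prep, Ap1m1, Arrdc4, Slc2a1 and Wdhd1 were added after values were seen. The comparison, the members and the lists were chosen with earlier results of these data known. Some genes that the rule names are not reported here.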

Additional observations from a re-analysis of the deposited data

Results flagged for a closer look

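In groups of 4 libraries 256 sets of values were checked for a library far from the other 3, and 22 met that criterion, against 12.8 that a chance of about 1 in 20 groups gives. A knockout stood apart on the high side for Txnip (155 CPM), Sstr1 (29.2), Phka1, a regulatory subunit of phosphorylase kinase (16.2), the clock gene Per1 (25.6), the myelin gene Cnp (32.2) and the Purkinje gene Rgs8 (47.5 CPM). On the low side a knockout stood apart for Cck (45.6 CPM), Txn1 (165), mt-Rnr1 (8897) and Hba-a1 (236 CPM). A wild type stood apart on the high side for Cbr1 (56.2 CPM), mt-Nd3 (981), Aftph (78.2), Mt1 (194), Ap1m1 (102), Per1 (28.7) and Hbb-bt (225 CPM), and for the share of reads outside genes (19.6%). On the low side 1 did for Slc2a1 (24.3 CPM). A high wild type also stood apart for Uty (19.6 CPM), Eif2s3y (48.4 CPM) and Ddx3y (85.3 CPM), where the male wild type 4 was the high one.

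The Prepl change differed from the PWS-IC change, tested as the difference in 1 fit of 16 libraries, for 20 of the genes reported. On the log2 scale the differences were -4.24 for Prepl, 1.42 for Gm26782, -0.97 for Tmem178, -1.33 for Car8, 1.45 for Gm13339, 1.02 for Cbr1, 1.32 for Igf1r and 1.63 for Hba-a1. For the mitochondrial mRNAs they were 1.10 for mt-Cytb, 0.61 for mt-Co2, 0.88 for mt-Nd1, 0.93 for mt-Atp6, 0.56 for mt-Nd3, 0.62 for mt-Co3, 0.89 for mt-Nd2, 0.96 for mt-Nd4, 1.18 for mt-Atp8, 0.65 for mt-Co1, 1.46 for mt-Nd4l and 0.56 for mt-Nd5.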

How the results depend on the processing

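The 36 calls kept their direction under every alternative run. Against 36 genes called, 34 were called with RLE factors, 33 with upper-quartile factors, 38 with a stricter filter, 51 with DESeq2 (32 of the 36) and 41 with limma voom (33 of the 36). With no filter 156 were called, including all 36. The counts were 18 in a fit of 16 libraries without a sex term (16 of the 36), 36 with one (18 of the 36), 6 with a sex term in the 8 libraries and 14 in the male libraries alone (8 of the 36), where the single male wild type is assumed to vary like the knockouts. Leaving out 1 library gave 12 to 103. Replicate numbers did not pair the libraries, and with them as a replicate block 35 were called, 30 of them among the 36. For the difference from the PWS-IC change, against 112, no filter gave 222, a sex term 235, the block 148, and leaving out 1 library 67 to 134. For sex, against 391, the fit of 16 libraries, added after the data were seen, gave 227, and leaving out 1 library 92 to 1274. The mitochondrial mRNA share differed by 1.55 to 2.11 percentage points without 1 library.

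Of the genes reported 16 turned direction under some alternative, none of them called. With a sex term in the 8 libraries and in the males alone the log2 changes were 0.039 and 0.037 for Ppp1r3d, 0.017 and 0.016 for Ugp2, 0.0084 and 0.0070 for Cat, -0.11 and -0.11 for Eif2s3y, -0.13 and -0.14 for Ddx3y, 0.064 and 0.063 for Cldn11, 0.042 and 0.040 for Cnp, 1.45 and 1.44 for Rarres2, and 0.20 and 0.20 for Foxj1. With a sex term over 16 libraries they were -0.16 for Arrdc3, -0.43 for Arrdc4, -0.16 for Hba-a1, -0.031 for Eif2s3y, -0.14 for Ddx3y, -0.035 for mt-Rnr1, -0.014 for mt-Rnr2, -0.11 for mt-Nd4l and -0.0074 for mt-Nd6. When 1 library was left out Foxj1 ranged from -0.17 to 0.032 (above 0 without wild type 2), mt-Rnr1 from -0.028 to 0.16, mt-Rnr2 from -0.0065 to 0.16, mt-Nd4l from -0.077 to 0.087, mt-Nd6 from -0.097 to 0.24, Hba-a1 from -0.026 to 0.34 and Arrdc4 from -0.052 to 0.29. The cause was not tested. Depth limits low genes: of the 1490 tested genes below an average log2 CPM of 2, 1 was called.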
